A study of Mus musculus with 2 samples.

Results

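Phosphodiesterase 6 (PDE6) is represented in the mouse retina by 6 genes, chosen by their symbols among the 32285 genes of the count matrices: Pde6a, Pde6b, Pde6g, Pde6c, Pde6h and Pde6d. All 6 were found, each as a single entry. PDE6 is the enzyme that hydrolyses cyclic GMP in photoreceptor outer segments: light activates the visual pigments, these activate transducin, and transducin relieves the inhibitory subunit of PDE6, so that cyclic GMP falls and the cyclic nucleotide-gated channels close. In rods the catalytic core pairs the products of Pde6a (alpha) and Pde6b (beta) with the inhibitory gamma subunit from Pde6g. In cones the catalytic core is a dimer of the Pde6c product (alpha prime), and the inhibitory subunit comes from Pde6h. Pde6d encodes a prenyl-binding protein that carries lipid-modified proteins, PDE6 catalytic subunits among them, to the outer segment.

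The retina was profiled by droplet single-cell RNA sequencing in 2 light conditions: mice kept under short-wavelength light, and mice kept under full-spectrum white light. Exposure began at postnatal day 14 and lasted 2 weeks in both. The labels name no strain, genotype, light level or number of animals. With 1 library per condition there is no replication, the conditions could not be tested against each other, and each 95% interval covers the error of counting alone.

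Under short-wavelength light 16106 barcodes were recovered, with 51681469 unique molecular identifiers (UMIs, counted molecules) in all and a median of 2434 for each. Under white light there were 5707 barcodes and 20952589 UMIs, with a median of 2784. The libraries shared 26 barcode sequences. The 6 genes took 382186 UMIs (0.740%) under short-wavelength light and 152035 (0.726%) under white light. Droplets were assigned to classes by at least 20 UMIs from at least 3 different marker genes, none of them a Pde6 gene. This gave 15172 and 5171 rods, 468 and 176 cones, 147 and 45 rod bipolar cells, 84 and 38 Müller glia and 35 and 21 microglia in the short-wavelength and the white-light library. Another 37 and 44 droplets lay just below the cone gate and were left out. So were 52 and 23 droplets that met more than 1 gate other than that of rods. Droplets that met the rod gate and 1 other gate were kept in the other class. Gated cones held medians of 94.5 and 99.5 UMIs from the markers of the rod gate. Median UMIs per droplet were 2390 and 2760 in rods and 6498 and 6573 in cones, short-wavelength light first. Levels are UMIs per 1000000 UMIs of the class (CPM). A 3′ UMI counts 1 molecule, so levels are not divided by transcript length.

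Promoter sequences from RefSeq (GRCm38.p6), 250 bases before to 50 after the start, matched 3 of the 6 genes. The rod gene Pde6b (chr5:108388123-108388422, plus strand) and the cone gene Pde6h (chr6:136954273-136954572, plus strand) are shown because their products stand for the 2 photoreceptor classes compared below. Capitals mark the letters TAATC, a core that homeobox factors such as CRX recognise, and TGCTGA, part of the element that the rod factor NRL recognises; both strands were searched and the motifs do not overlap each other.
Pde6b: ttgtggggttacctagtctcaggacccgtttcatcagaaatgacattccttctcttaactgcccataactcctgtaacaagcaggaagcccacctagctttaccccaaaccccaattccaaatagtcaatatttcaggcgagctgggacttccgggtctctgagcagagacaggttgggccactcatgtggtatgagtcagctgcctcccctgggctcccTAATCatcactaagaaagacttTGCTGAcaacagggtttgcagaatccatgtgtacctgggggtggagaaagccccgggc
Pde6h: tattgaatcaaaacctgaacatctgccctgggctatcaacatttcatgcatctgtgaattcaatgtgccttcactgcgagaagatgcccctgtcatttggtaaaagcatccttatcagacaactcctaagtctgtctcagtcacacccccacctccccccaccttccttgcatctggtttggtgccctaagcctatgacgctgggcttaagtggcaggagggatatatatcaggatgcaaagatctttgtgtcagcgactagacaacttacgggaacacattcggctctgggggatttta
The Pde6b window held both motifs, TAATC beginning 30 bases and TGCTGA 8 bases before the annotated start. The Pde6h and Pde6d windows held neither. Among 32851 promoters of this length, 22.0% held TAATC, 19.5% held TGCTGA and 4.49% held both, so a match is a description of the letters only.

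The genes are scattered over the genome (mm10, GENCODE annotation). Pde6a lies on chromosome 18 from 61220315 to 61289924, plus strand, and Pde6b on chromosome 5 from 108388391 to 108432397, plus strand. Both catalytic genes of rods are long, 69.6 and 44.0 kb, and their longest coding transcripts have 22 exons each. Pde6g is the short one, 5.9 kb with 4 exons on chromosome 11 from 120447605 to 120453500, minus strand. Pde6c covers 51.2 kb on chromosome 19 from 38132781 to 38183958, plus strand, with 21 exons. Pde6h spans 45.0 kb in this annotation, on chromosome 6 from 136923832 to 136968865, plus strand, but 11.3 kb in RefSeq, and the longer model overlaps Arhgdib on the opposite strand. Pde6d covers 39.6 kb on chromosome 1 from 86542994 to 86582629, minus strand, with 5 exons.

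The catalytic pair of rods was highest in rods, at near-equal levels. Pde6a stood at 1669 CPM (1657 to 1681) in short-wavelength rods and 1622 (1603 to 1640) in white-light rods. Pde6b stood at 1901 (1888 to 1914) and 1862 (1842 to 1882). The ratio of Pde6a to Pde6b was 0.878 (0.869 to 0.886) in the short-wavelength library and 0.871 (0.857 to 0.885) in the white-light library, so the alpha transcript was about as scarce relative to beta in both libraries. With every droplet thinned to 1000 UMIs, both transcripts were seen together in 66.7% of short-wavelength rods and 65.5% of white-light rods. The products of the single shares, 66.5% and 65.4%, lay within the intervals of the joint shares (65.9% to 67.4% and 64.1% to 66.8%).

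Pde6g was the most abundant of the 3 rod transcripts. It had 3323 CPM (3306 to 3340) in short-wavelength rods and 3406 (3380 to 3434) in white-light rods, where 99.3% and 99.2% of droplets held at least 1 UMI. After thinning to 1000 UMIs those shares were 92.5% and 92.0%. In microglia, which should lack the gene, the thinned shares were 48.4% and 40%, from droplets with medians of 7312 and 6998 UMIs before thinning. Droplets of every class compared held UMIs of rod markers.

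In cones, Pde6a and Pde6b were lower than in rods while Pde6g was nearly as high. Cone levels were 483 and 509 CPM for Pde6a and 517 and 575 CPM for Pde6b, in the short-wavelength and white-light library. This put Pde6a 3.46-fold lower in cones than in rods (3.29 to 3.64) under short-wavelength light and 3.18-fold lower (2.94 to 3.45) under white light. Pde6g stood at 3016 CPM (2956 to 3077) in cones of the short-wavelength library and 3122 (3024 to 3222) in those of the white-light library, which is 90.8% and 91.6% of its rod level.

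Rod RNA was present in droplets of every class, so these cone values were set beside a set of 6 rod markers, Gnat1, Gngt1, Nrl, Nr2e3 and Cnga1 among them. Their summed level was 9663 CPM in short-wavelength cones and 12526 in white-light cones, which is 44.0% and 53.2% of their level in rods. Nrl, Nr2e3, Gnat1 and Cnga1 ranged from 29.1% (Nr2e3) to 33.6% (Cnga1) of the rod level in short-wavelength cones. Pde6a, at 28.9%, and Pde6b, at 27.2%, lay just below that range. In white-light cones the same markers ranged from 36.1% (Nr2e3) to 42.6% (Gnat1), against 31.4% for Pde6a and 30.9% for Pde6b. Gngt1, the gamma subunit of rod transducin, reached 83.7% in short-wavelength and 95.9% in white-light cones and was the marker nearest to Pde6g.

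Pde6g was still high in the cones with the least rod RNA. In the 318 short-wavelength and 94 white-light cones in which at most 1% of UMIs came from the 6 rod markers, Gnat1 stood at 19.2% and 16.7% of its rod level and Pde6a at 20.9% and 15.3%. Pde6g still stood at 2661 and 2521 CPM, 80.1% and 74.0% of the rod level, and Gngt1 at 68.8% and 68.7%. Relative to rods, Pde6g stayed far above Pde6a and Pde6b in these cones. Gnat1 and Gngt1 are among the 6 markers by which the cones were chosen, so the choice itself bears on their levels there. How much of the Pde6g RNA is the cones' own transcript was not tested.

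**Figure D1:**
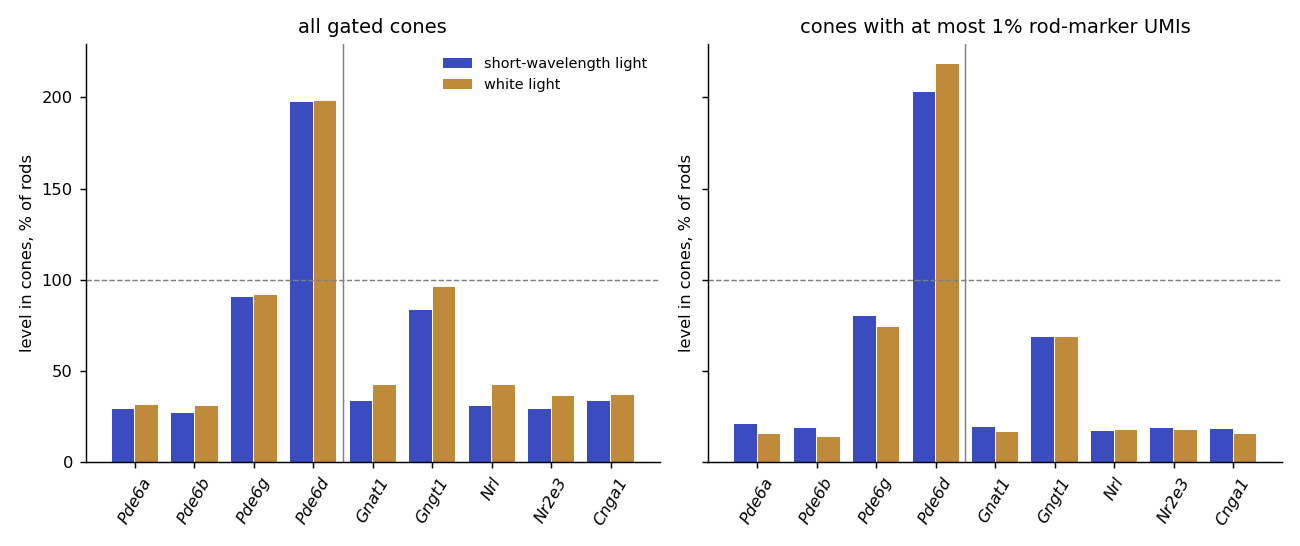
Levels in cones as a percentage of the level in rods (bars, starting at 0; dashed line at 100%) for 4 Pde6 genes, left of the vertical line, and 5 rod markers, right of it, in all gated cones and in cones with at most 1% rod-marker UMIs. Pde6g and Gngt1 stay above 68% in both panels, while Pde6a and Pde6b move with Gnat1, Nrl, Nr2e3 and Cnga1.

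The cone catalytic gene Pde6c was nearly restricted to cones. It had 1187 CPM (1150 to 1226) in cones of the short-wavelength library and 1057 (1001 to 1116) in those of the white-light library, which was 158-fold (141 to 177) and 160-fold (132 to 194) its level in rods of the same library. In rods it had 7.52 CPM under short-wavelength light and 6.63 CPM under white light. Where both gates left out phototransduction genes it had 17.2 and 17.3 CPM in rods, which narrows the contrast there. Those gates held only 203 and 67 cones, and a cone that missed its gate could be counted as a rod. The part of such droplets in the rise was not tested. Pde6c UMIs were found in 93.2% of short-wavelength cones and 86.4% of white-light cones, against 2.16% and 2.22% of rods. After thinning, the shares were 64.2% and 56.1% in cones and 0.818% and 0.746% in rods. No Pde6c UMI was seen in microglia of either library.

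Pde6h, the cone inhibitory gene, was the most abundant of all 6 within cones. Its level was 8985 CPM (8882 to 9090) in cones of the short-wavelength library and 7750 (7596 to 7907) in those of the white-light library, with medians of 59 and 51 UMIs per cone. It was 162-fold (156 to 169) and 143-fold (134 to 153) higher in cones than in rods. Rods held 55.5 and 54.2 CPM, and 147 and 151 CPM with gates free of phototransduction genes, which held fewer cones. A set of 6 cone markers (Arr3, Opn1sw, Opn1mw, Gnat2, Gngt2 and Cngb3) stood in rods at 0.690% and 0.688% of their summed cone level, and single markers ranged from 0.493% to 0.829%. Pde6c and Pde6h in rods, at 0.617% to 0.699% of their cone levels, fell inside the range of these markers.

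Pde6d was highest in cones and was found in every class compared. It stood at 485 CPM (462 to 510.2) in cones of the short-wavelength library and 499.5 (461 to 540.5) in those of the white-light library, against 246 (241 to 250.1) and 252 (245 to 259) in rods. Cones thus exceeded rods 1.98-fold in both libraries, with intervals of 1.87 to 2.09 and 1.82 to 2.16. In cones with at most 1% rod-marker UMIs the levels were 498 and 550.3 CPM. Thinned to 1000 UMIs, 38.1% of short-wavelength and 44.5% of white-light cones held a Pde6d UMI, against 22.0% and 22.4% of rods.

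In the other classes the rod members were lower, and were set beside the share of rod-marker RNA there. Rod bipolar cells held 284 and 312 CPM of Pde6a, 307 and 339 of Pde6b and 841 and 921 of Pde6g. For Pde6g this is 1.16 times (1.09 to 1.25) and 1.03 times (0.926 to 1.15) what the summed rod markers would give at their share of the rod level, and for Pde6a 0.783 and 0.735 times. Müller glia held 662 and 731 CPM of Pde6g, 1.08 and 1.18 times that share. In microglia Pde6a was at 0.696 times (0.528 to 0.899) that share under short-wavelength light and 1.198 times (0.958 to 1.48) under white light, Pde6b at 0.611 (0.464 to 0.790) and 1.18 (0.954 to 1.44), and Pde6g at 1.05 and 1.05. Pde6c rested on at most 5 UMIs in each of these classes. Pde6d again lay above the rod-marker share, 1.83 and 1.52 times in rod bipolar cells and 1.74 and 2.23 times in Müller glia, with 30 to 94 UMIs behind each value. In microglia it was at 1.39 and 1.34 times, with intervals that include 1. Across the classes the order of levels was the same in both libraries for the top of each gene: rods above cones for Pde6a, Pde6b and Pde6g, cones above rods for Pde6c, Pde6h and Pde6d. The order among rod bipolar cells, Müller glia and microglia could mostly not be told apart within the intervals.

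**Figure D2:**
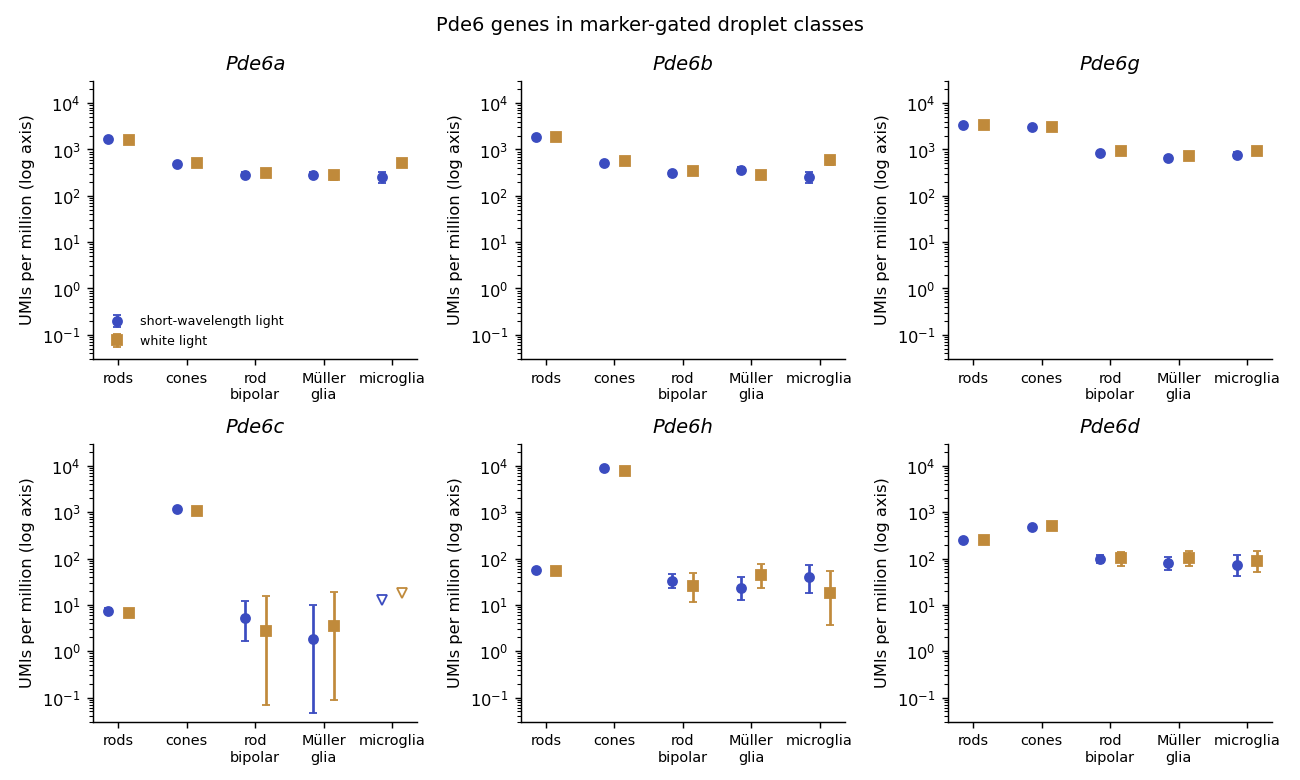
Level of each Pde6 gene in CPM (log axis) in 5 marker-gated classes, short-wavelength library as circles and white-light library as squares, with 95% Poisson intervals; open triangles mark the limit of 3 UMIs where none was counted. Pde6a and Pde6b peak in rods, Pde6c and Pde6h in cones, Pde6g is level between rods and cones, and Pde6d is highest in cones.

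Over the 10 class and library levels (5 classes in 2 libraries, which share libraries and free RNA), Pde6a and Pde6b had almost the same profile (Pearson r = 0.996 on log2(CPM + 5)), as did Pde6c and Pde6h (r = 0.994). Pde6g went less closely with Pde6a (r = 0.820) than with Pde6d (r = 0.926). By rank correlation this order was reversed, at 0.903 for Pde6a and 0.721 for Pde6d. Of 7592 genes, those most like Pde6a were Nr2e3 and Samd11, nuclear proteins of photoreceptors, and Slc24a1, the rod calcium exchanger (r = 0.993 to 0.995). Samd11 and Nr2e3 also led for Pde6b, followed by Gramd2. Gngt1 led for Pde6g (r = 0.998), ahead of Tulp1 and Vtn. The genes most like Pde6c were 4930526L06Rik, Gm42697 and C230014O12Rik, those most like Pde6h were C230014O12Rik, Cckbr and Clca1, and those most like Pde6d were Pcdh15, Rbp3 and Jchain. By rank correlation, 8 of these 18 were among the 50 genes most like their member and 10, Nr2e3 and Slc24a1 for Pde6a among them, were not.

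The balance of catalytic to inhibitory UMIs differed widely between the photoreceptor types. In rods the sum of Pde6a and Pde6b UMIs was 1.07 times Pde6g (1.07 to 1.08) in the short-wavelength library and 1.02 times (1.01 to 1.03) in the white-light library. In cones Pde6c was 0.132 times Pde6h (0.128 to 0.137) in the short-wavelength library and 0.136 times (0.129 to 0.145) in the white-light library. Cones thus held 7.57 and 7.33 Pde6h UMIs for each Pde6c UMI. Whether reads in introns were counted is not given, and their part in the rod and cone ratios was not tested. With Pde6g added to Pde6h, cone values were 0.0989 and 0.0972. Cones were also divided by opsin (at least 10 opsin UMIs), short-wavelength library first. Pde6c over Pde6h was 0.128 (0.117 to 0.139) and 0.126 (0.108 to 0.145) where at least 90% of opsin UMIs were Opn1sw. It was highest where both opsins were present, at 0.141 (0.134 to 0.148) and 0.155 (0.142 to 0.168). Where at least 90% were Opn1mw it was 0.123 (0.116 to 0.130) and 0.126 (0.114 to 0.139). Median UMIs per cone were 5517 and 3534, 7169 and 8066, and 6986.5 and 8004 in these groups. By UMIs per cone, from the lowest of 5 parts up, short-wavelength ratios were 0.0752, 0.119, 0.123, 0.143 and 0.154. White-light ratios were 0.0475, 0.137, 0.164, 0.129 and 0.159. The part of depth in the order of the opsin groups was not tested.

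Within rods the balance was far from constant. Rods of both libraries together were divided into 5 parts of equal size by the share of UMIs from Malat1, a long noncoding RNA that stays in the nucleus. From the lowest to the highest part, the ratio of Pde6a plus Pde6b to Pde6g was 0.515, 1.07, 1.29, 1.43 and 1.451 in short-wavelength rods and 0.570, 1.19, 1.39, 1.49 and 1.47 in white-light rods. The inhibitory transcript moved and the catalytic ones hardly did. Pde6g had 2484 CPM in the highest and 6292 CPM in the lowest part of the short-wavelength rods, 2.53-fold lower (2.49 to 2.57), and 2358 against 5668 CPM in the white-light rods, 2.40-fold lower (2.33 to 2.48). Pde6a had 1684 CPM in the highest and 1514 CPM in the lowest part under short-wavelength light, a ratio of 1.11 (1.08 to 1.14), and 1599.8 and 1494 CPM under white light, a ratio of 1.07 (1.03 to 1.12). Pde6b had a ratio of 1.11 (1.09 to 1.14) and 1.08 (1.04 to 1.12).

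Between the highest and the lowest Malat1 part, 3 of 6 Pde6 genes were past 1.2-fold lower in short-wavelength rods (Pde6g, Pde6d and Pde6c, the last by 1.23-fold with an interval of 0.868 to 1.75), where 19.3% of 10774 genes were. In white-light rods 3 of 5 tested were (Pde6g, Pde6d and Pde6h), where 24.0% of 9289 genes were. Pde6d was 1.38-fold and 1.42-fold lower. For comparison, of the 17 other genes of the rod light-response cascade 9 were lower under short-wavelength light and 10 under white light, among them Gngt1 (2.54-fold and 2.43-fold) and Rcvrn (2.42-fold and 2.38-fold). Sag, which encodes arrestin, had ratios of 1.01 and 0.959, and Grk1, the visual pigment kinase of photoreceptors, 1.08 and 1.08. The lower genes of the cascade were mostly short, with a median span of 8.01 and 8.15 kb, against 40.5 and 41.5 kb for the others; Gnb1, at 67.9 kb, was lower all the same and Rgs9bp, at 6.59 kb, was not. Across these 17 genes, which are not independent, span and the log2 ratio had a Spearman correlation of 0.53 and 0.62. The short Pde6g and the long Pde6a and Pde6b have this same relation, but Pde6d, at 39.6 kb, was lower as well in both libraries. So were Pde6c, at 51.2 kb, in short-wavelength rods and Pde6h, at 45.0 kb (11.3 kb in RefSeq), in white-light rods.

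The mitochondrial share of UMIs ran the other way. From the lowest to the highest of 5 parts by mitochondrial share, the rod ratio of Pde6a plus Pde6b to Pde6g was 1.52, 1.38, 1.27, 1.003 and 0.566 under short-wavelength light and 1.61, 1.447, 1.25, 0.981 and 0.545 under white light. UMIs per droplet gave no such order, with 0.791, 1.11, 1.15, 0.986 and 1.201 from the lowest to the highest part under short-wavelength light and 0.633, 0.931, 1.10, 1.02 and 1.09 under white light. The part that nuclear or mitochondrial RNA content has in the ratio was not tested.

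Cones showed the same division between an inhibitory and a catalytic gene. From the lowest to the highest Malat1 part of the cones, Pde6c over Pde6h was 0.0757, 0.107, 0.129, 0.148 and 0.170 under short-wavelength light and 0.0675, 0.119, 0.148, 0.205 and 0.172 under white light. Pde6h had 6075 CPM in the highest and 14452 CPM in the lowest part of short-wavelength cones, 2.38-fold lower, and 4606 against 12909 CPM in white-light cones, 2.80-fold lower. Pde6c had 1033 against 1094 CPM and 793 against 871 CPM in the same parts. Here 3 of 6 members were past 1.2-fold lower under short-wavelength light, where 28.5% of genes were, and 2 of 6 under white light, where 43.6% were. Pde6a and Pde6b were 2.02-fold and 3.07-fold higher in the highest part of short-wavelength cones, and 3.28-fold and 2.39-fold higher in that of white-light cones. They were the 2 of 6 members past 1.2-fold higher in each library. Of all genes, 2226 of 4639 were past it in that direction under short-wavelength light and 525 of 1256 under white light. The summed rod markers were lower in the highest part, at 9158 CPM against 15096 CPM in the lowest part of short-wavelength cones and 12572 against 21394 CPM in white-light cones. Gnat1 stood at 1165 against 1222 CPM and 1608 against 2128 CPM, and the mitochondrial share at 1.67% against 5.95% and 1.41% against 6.04%. Their part in these ratios was not tested. The median number of UMIs per cone was 7888 in the highest and 1958 in the lowest part of short-wavelength cones, and 7982 and 2192 in those of white-light cones.

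**Figure D3:**
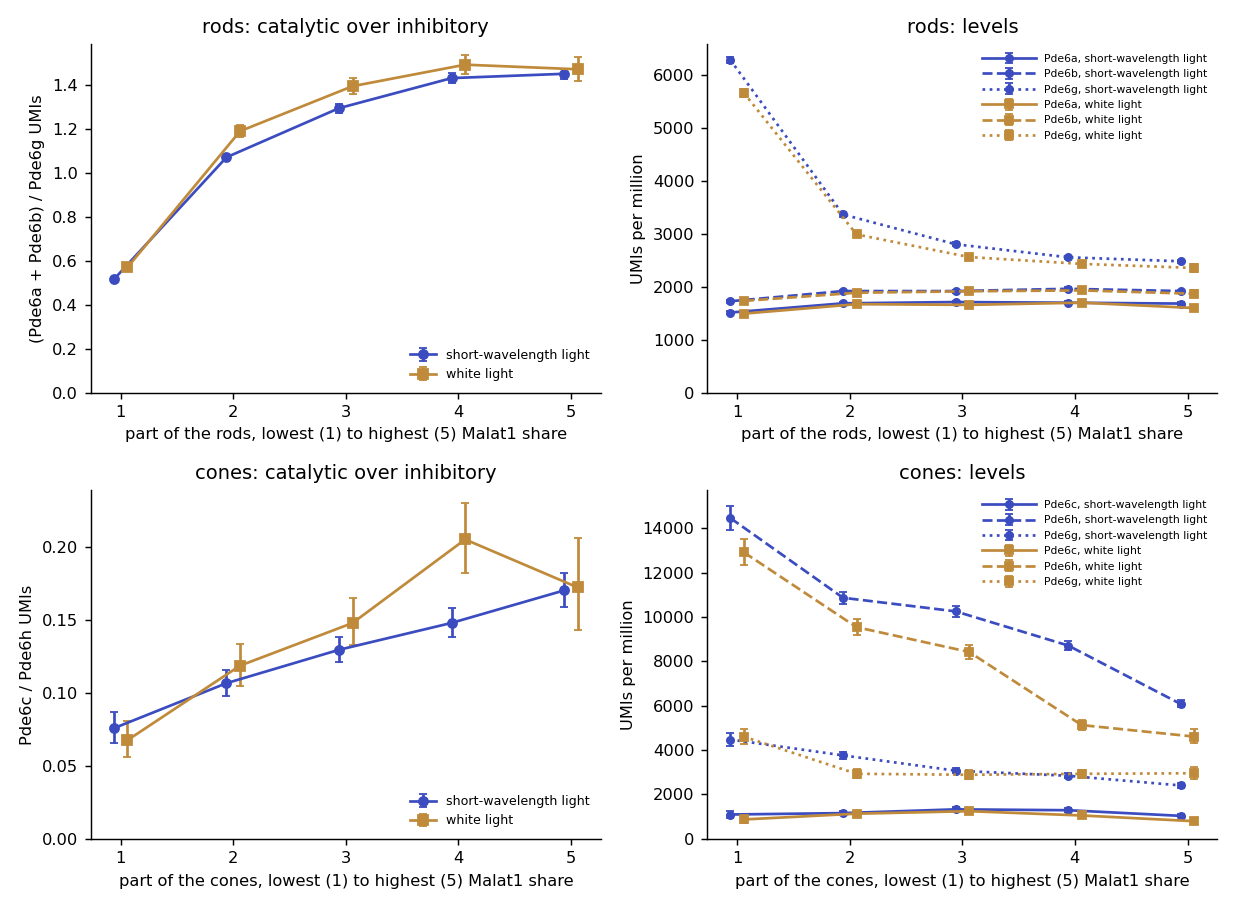
Ratio of catalytic to inhibitory UMIs (left) and levels in CPM (right) over 5 parts of the rods (top) and cones (bottom) ordered by Malat1 share, with 95% counting intervals; circles are the short-wavelength and squares the white-light library. Pde6g in rods and Pde6h in cones are lower in each part than in the one before, while Pde6a, Pde6b and Pde6c differ far less.

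Between the light conditions, the levels of the rod members in rods differed by at most 3%. The short-wavelength over white ratio was 1.03 for Pde6a (1.02 to 1.04), 1.02 for Pde6b (1.01 to 1.03), 0.975 for Pde6g (0.966 to 0.985) and 0.974 for Pde6d (0.941 to 1.01). None of the 6 members was past 1.2-fold in rods, where 18.5% of 13064 genes with at least 50 UMIs were past it in either direction. With the catalytic genes slightly higher and Pde6g slightly lower, the ratio of Pde6a plus Pde6b to Pde6g was 1.05-fold higher (1.04 to 1.06) in the short-wavelength library.

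Within the Malat1 parts this difference turned round. In parts 1 to 5, from the lowest share up, the ratio of Pde6a plus Pde6b to Pde6g in short-wavelength rods was 0.905, 0.9001, 0.928, 0.959 and 0.986 times that in white-light rods, and only in the highest part did the interval include 1 (0.946 to 1.03). Pde6g was higher under short-wavelength light in each part, by 1.11, 1.13, 1.09, 1.05 and 1.05-fold, although it was lower over all rods. The parts were filled unevenly: parts 1 to 5 held 2557, 2897, 3067, 3216 and 3435 short-wavelength rods and 1512, 1171, 1002, 852 and 634 white-light rods. Malat1 itself took 5.61% of UMIs in short-wavelength rods and 5.07% in white-light rods. Within parts by mitochondrial share, the ratio between the libraries was 0.946, 0.955, 1.02, 1.02 and 1.04, and within parts by UMIs per droplet 1.25, 1.19, 1.04, 0.967 and 1.101. The direction of the difference in rod balance therefore depended on how the rods were grouped.

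Over all cones, both cone members were higher under short-wavelength light, short of 1.2-fold. Pde6h had 8985 CPM under short-wavelength light and 7750 CPM under white light, a ratio of 1.16 (1.13 to 1.19), and Pde6c a ratio of 1.12 (1.05 to 1.197). Pde6g had a ratio of 0.966 (0.931 to 1.003), Pde6d 0.972 (0.885 to 1.07), Pde6a 0.948 (0.863 to 1.04) and Pde6b 0.899 (0.823 to 0.983). In cones with at least 90% Opn1sw among opsin UMIs, Pde6h had a ratio of 1.36 (1.28 to 1.44) and Pde6c 1.38 (1.18 to 1.63), and in those with at least 90% Opn1mw 1.09 (1.05 to 1.13) and 1.06 (0.952 to 1.19); the difference between these cones was not tested. Over all cones none of the 6 was past 1.2-fold, where 32.3% of 8891 genes were. Pde6c over Pde6h was 0.969 times as high (0.906 to 1.04), and Pde6g over Pde6h 0.833 times as high (0.797 to 0.871).

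Rod RNA in the cones also differed between the libraries, in the direction opposite to Pde6h and Pde6c. The 6 rod markers summed to 9663 CPM under short-wavelength light and 12526 CPM under white light. The part of rod RNA in these cone values was not tested. In cones with at most 1% rod-marker UMIs, the ratio was 1.05 (1.02 to 1.08) for Pde6h and 1.03 (0.954 to 1.11) for Pde6c. There Pde6a and Pde6b, counted by 735 and 761 UMIs under short-wavelength light and 170 and 177 UMIs under white light, were 1.403-fold (1.19 to 1.67) and 1.395-fold (1.18 to 1.65) higher, against 0.948 and 0.899 over all cones. In the 5 Malat1 parts of the cones, Pde6h was 1.12, 1.14, 1.22, 1.70 and 1.32-fold higher under short-wavelength light, and Pde6c 1.26, 1.02, 1.07, 1.23 and 1.30-fold.

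**Figure D4:**
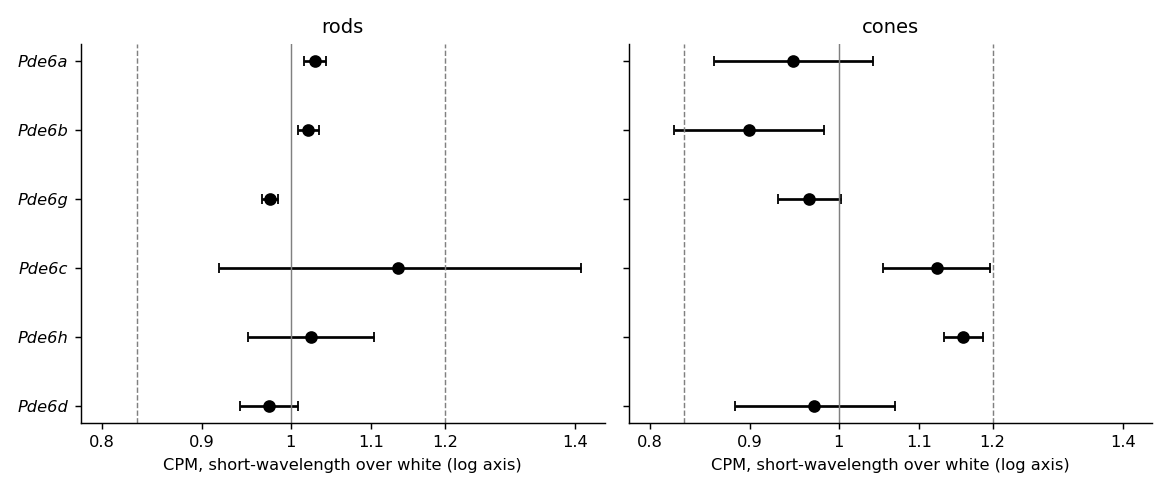
Ratio of CPM in the short-wavelength library over the white-light library (log axis) for the 6 Pde6 genes in rods and cones, with 95% counting intervals; the solid line marks 1 and the dashed lines 1.2-fold in either direction. All 6 points lie between the dashed lines in both classes, and Pde6c and Pde6h in cones lie to the right of 1.

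In the smaller classes, counts were low and the background was high. None of 4 tested members was past 1.2-fold in rod bipolar cells, where 40.8% of genes were. In Müller glia 2 of 4 were, where 45.8% of genes were, 23.7% higher and 22.1% lower: Pde6b was 1.27-fold higher (0.979 to 1.66) and Pde6d had a ratio of 0.770 (0.473 to 1.27). In microglia 3 of 3 were lower, where 59.5% of genes were past the fold in either direction, 31.3% higher and 28.2% lower. Pde6a had 252 CPM under short-wavelength light and 515 CPM under white light, a ratio of 0.489 (0.344 to 0.690), and Pde6b 252 and 581 CPM, a ratio of 0.433 (0.307 to 0.606). Pde6g had a ratio of 0.803 (0.643 to 1.0015). A single droplet held 19.0% of the Pde6a UMIs in the short-wavelength and 25.6% in the white-light microglia, and the rod markers summed to 4760 and 6240.5 CPM.

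Most genes that work with PDE6 kept within 1.2-fold between the light conditions, as did most of all genes tested. The lists were not matched for UMIs to the background, which takes in every gene with at least 50 UMIs. Whether they differ from genes with similar counts was not tested. In rods, of the 17 genes of the rod cascade tested 0 were past the fold (median log2 ratio -0.05, against 0.01 over all genes, of which 18.5% were past the fold, 8.43% higher and 10.1% lower). Of 16 genes for PDE6 assembly and transport 1 was lower, and of 11 photoreceptor transcription factors 0 were. Unc119, a carrier of lipid-modified proteins, had 2541 CPM under short-wavelength light and 2661 CPM under white light, and Nrl, the factor that sets rod fate, 1447 and 1494 CPM. Sag had a ratio of 0.957, the chaperone Hsp90aa1 0.863 and the factor Neurod1 1.09. Of 9 other cyclic nucleotide phosphodiesterases tested in rods 2 were lower; the most abundant was Pde8b, at 562 and 582 CPM. Of 11 genes of the cone cascade, which include Grk1, Gucy2e and Guca1a of the rod list, 1 was higher and 2 were lower, with Gngt2 at 19.7 and 27.4 CPM.

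In cones, 32.3% of all genes were past the fold, 19.6% higher and 12.7% lower. Of 17 genes of the rod cascade 4 were lower, with Gnat1 at a ratio of 0.726 and Gnb1 at 0.792, beside the lower rod RNA described above; Nrl, a rod factor, stood at 0.707. Of 12 genes of the cone cascade 0 were past the fold: Opn1sw had a ratio of 1.01 and Arr3, cone arrestin, 1.15 (1.12 to 1.18), near that of Pde6h. Of 14 assembly and transport genes 1 was higher and 2 were lower, the chaperones Hsp90ab1 (0.705) and Hsp90aa1 (0.751). Of 8 other phosphodiesterases 1 was higher, with Pde8b at 1.04 and Pde7a at 0.996, and of 12 transcription factors 1 was higher and 3 were lower.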

How the data were processed

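Retina of mice kept under short-wavelength or white light gave 1 library each, so conditions were compared without a test. The authors deposited unnormalized UMI counts for each gene in each droplet; Cell Ranger 9.0.0 produced them, per the file headers, from 10x 3′ libraries, per the labels' protocols. The submitters' processing notes name mm10, Seurat and edgeR. Whether reads in introns were counted, and how many animals each library held, is not given in the sources used here. UMI counts were used as deposited.

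Droplets were kept (16095 and 5695) if they had 300 genes or more and no more than 20% of UMIs from mitochondrial genes. A class needed 20 UMIs from 3 markers; droplets with 10 to 19 such UMIs of a non-rod class, or with more than 1 non-rod gate, were left out, and rods were the rest that met the rod gate. No doublet caller was run. Classes with at least 20 droplets in both libraries were compared. The numbers were set from marker UMIs, and the members and lists were chosen with earlier results of these data known. Counts were summed per class. Levels have exact Poisson, shares Clopper-Pearson, ratios exact conditional binomial and ratios of ratios exact conditional odds-ratio intervals, at 95%. Log2 ratios add 5 CPM. Genes with at least 50 UMIs over both libraries were tested against 1.2-fold. From each companion list, genes were named whose interval lay wholly beyond 1.2-fold (at most 4), otherwise the 2 with the most UMIs, and for each member the 3 genes with the most similar profile; other genes in the account of the Malat1 parts were chosen after their values were seen. Values of 1 gene of the rod lists are not reported here.

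Steps ran in Python 3.11.15 with numpy 2.4.6, scipy 1.17.1 and pandas 2.3.3; TMM scaling used edgeR 4.0.16 in R 4.3.3. On simulated counts with 1.5-fold changes in rods (12970 genes), 95.7% of intervals held the true ratio and 98% of changed genes passed 1.2-fold. In cones (8745 genes) these were 95.9% and 93.2%. The simulated counts held counting error alone, so they check the calculation and cannot show differences between droplets or libraries. Alternatives changed the filter, gates, depth, scale, pseudocount, fold and minimum count, and divided rods by Malat1 share. Leaving out cones rich in rod RNA, and parts by mitochondrial share, UMIs and Malat1 share in cones, were chosen after seeing the data.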

Additional observations from a re-analysis of the deposited data

Results flagged for a closer look

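Pde6b differed between classes in the direction of its short-wavelength over white ratio, with intervals that leave out 1 on both sides: 0.899 in cones and 1.02 in rods. The same was found between microglia, at 0.433, and rods, and for Pde6a between microglia, at 0.489, and rods, at 1.03. The difference between the classes was not tested. In cones with at most 1% rod-marker UMIs the Pde6b ratio was 1.395, and a single droplet held 23.7% of the Pde6b UMIs of white-light microglia; the part of rod RNA in these values was not tested.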

How the results depend on the processing

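No paired analysis was possible because each condition has 1 library. Values are given for short-wavelength light before white light. The rod ratio of Pde6a plus Pde6b to Pde6g was 1.02 and 0.972 with gates free of phototransduction genes, 1.05 and 1.002 without the 5% of droplets with most UMIs, 1.0016 and 0.987 at 1000 UMIs per droplet and 1.01 and 0.954 as a mean over droplets. Within 5 Malat1 parts it was 0.515 and 0.570, 1.07 and 1.19, 1.29 and 1.39, 1.43 and 1.49, 1.451 and 1.47. The ratio between the libraries, 1.05, was 1.02 at 1000 UMIs and was reversed in the Malat1 parts, at 0.905, 0.9001, 0.928, 0.959 and 0.986.

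In cones, Pde6c over Pde6h was 0.147 and 0.165 with gates free of phototransduction genes (0.891 between the libraries), 0.120 and 0.123 without the top 5%, 0.118 and 0.117 at 1000 UMIs, 0.116 and 0.112 as a mean over droplets, and 0.139 under short-wavelength light without cones rich in rod RNA. The cause of these moves was not tested.

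The count of members past 1.2-fold, 0 in both classes, became 1 in rods and 2 in cones with gates of 10 marker UMIs (Pde6c in rods; Pde6b and Pde6h in cones), 3 in cones with gates free of phototransduction genes (Pde6a and Pde6b lower, Pde6h higher), 2 in cones without those rich in rod RNA (Pde6a and Pde6b higher) and 1 in cones as a mean over droplets (Pde6b lower). In the Malat1 parts of rods it was 2, 1, 1, 0 and 2, all of them Pde6c or Pde6h. With the gates used above, 18.5% of genes in rods and 32.3% in cones were past 1.2-fold. The shares over all genes in the other settings are not given here, so these counts are not read as a result about the members. The gates free of phototransduction genes held only 203 and 67 cones. Genes past the fold numbered 609 of 13064 in rods and 612 of 8891 in cones at 1.5-fold. They numbered 3785 in rods with at least 20 UMIs, and 1111 in rods and 842 in cones with at least 200 UMIs. The number of genes tested differed with the minimum count. In cones at 1000 UMIs, where fewer genes reached the minimum count, they numbered 1284.

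The light ratio of Pde6g in rods, 0.975, was 1.01 at 1000 UMIs and 1.11, 1.13, 1.09, 1.05 and 1.05 in the Malat1 parts. That of Pde6b in rods was 0.996 in the lowest part and that of Pde6a 0.9997 in part 4, and Pde6b in cones was 1.395 without cones rich in rod RNA. Of 394 recomputed values of single members and genes, 223 stayed within the counting interval, 162 moved beyond it and 9, given above, changed direction; only values whose interval over all droplets leaves out 1 are counted as changing direction, so Pde6a in cones (0.948, then 1.403 without cones rich in rod RNA), Pde6h in the lowest Malat1 part of rods (0.687) and Pde6d in part 2 (1.06) are not. With 1 library per condition, differences of a few percent cannot be told apart from differences between libraries, and values outside rods and cones rest on few UMIs.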

Other observations

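Droplets that met the haemoglobin gate were left out of the comparisons. There were 7 in the short-wavelength and 57 in the white-light library, and haemoglobin genes took 68.7% of UMIs in the short-wavelength ones and 4.67% in the white-light ones. Their ratio of Pde6a plus Pde6b to Pde6g was 1.22 (0.769 to 1.95) under short-wavelength light, from 44 and 36 UMIs, and 0.551 (0.484 to 0.627) under white light, from 365 and 662 UMIs. The 6 rod markers summed to 6687 CPM in the short-wavelength and 42232 CPM in the white-light ones, against 21959 and 23536 CPM in rods. Pde6h had 1 UMI in the short-wavelength ones and 125 UMIs, or 781 CPM, in the white-light ones.

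Rods with at least 1 Fos UMI, an early response gene, had a ratio of Pde6a plus Pde6b to Pde6g of 1.17 under short-wavelength light and 1.08 under white light, against 1.06 and 1.01 in rods without. Those with Edn2 or Cebpd UMIs, genes linked to photoreceptor stress, had 1.14 under short-wavelength light and 0.959 under white light, against 1.07 and 1.02 in rods without. These groups were not matched for UMIs per droplet, with which the rod ratio also differed. The part of depth in these values was not tested.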
